A study of Mus musculus with 46 samples.

Results

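Apoe, Apoc1, Apoc2, Lpl, Pltp, Lpcat3, Lpcat1 and Lpcat2 are 8 mouse genes that move lipid between lipoproteins and cells or rebuild the fatty acid tails of phospholipids. They were taken by symbol from a table of 24671 genes and described in bone marrow-derived macrophages (BMDM), cells grown from mouse bone marrow into macrophages in culture. All 8 were among the 13838 genes with enough counts to be tested. The study measured polyadenylated RNA in 46 libraries, 5 for each of 8 treatments and 6 for Vehicle. The single treatments were 27-hydroxycholesterol (27HC), an oxysterol that binds liver X receptors and estrogen receptors, GW3965, a synthetic liver X receptor agonist, and GSK2033, a liver X receptor antagonist. ICI, an estrogen receptor antagonist, and estradiol (E2), an estrogen receptor agonist, completed them. The combinations were GSK2033 plus 27HC, ICI plus 27HC, and GW3965 plus a second compound that the labels give in 2 ways, as 27HC and as ICI, so it is left unnamed and the group is called the GW3965 combination. Doses, exposure times and the strain, sex and age of the mice are not in the labels used here. They do not say whether replicates are different mice, so p-values reflect the spread between libraries, which may be technical.

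Liver X receptors are nuclear receptors that sense oxysterols and, in macrophages, switch on genes that load cholesterol and phospholipid onto lipoproteins. Apolipoprotein E accepts that lipid and carries it to lipoprotein receptors, lipoprotein lipase cuts triglyceride out of circulating particles, and phospholipid transfer protein moves phospholipid between particles. The lysophosphatidylcholine acyltransferases attach a fatty acid to a phospholipid that has lost one. Among them, Lpcat3 prefers polyunsaturated chains, Lpcat1 saturated ones, and Lpcat2 also makes platelet-activating factor, an inflammatory lipid.

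Each library held between 19354093 and 30921038 estimated counts, and no pair of replicates held identical values. All 8 macrophage markers checked were present in every library, with a summed level of 9186 to 9765 CPM with the GW3965 combination, the lowest group, and 20883 to 22816 CPM with Vehicle. The markers did not all move together. In the test used below, Cd68 and Mertk were higher with GW3965 than with Vehicle and 6 were lower. With 27HC, Cd68 was higher and 6 were lower. CPM are counts per 1000000, scaled between libraries by TMM (trimmed mean of M-values). Summed defining markers of hepatocytes and adipocytes, tissues that also make several of these proteins, stayed at or below 0.694 and 0.431 CPM, and those of erythroid cells at or below 0.198 CPM. Neutrophil, lymphocyte and dendritic cell lists summed to at most 3.13, 1.04 and 1.99 CPM. Of 4 osteoclast markers, Calcr and Oscar stayed under 0.5 CPM in every library, while Acp5 and Ctsk gave summed levels of 17.6 to 19.2 CPM with GW3965 and 37.0 to 41.9 CPM with Vehicle. A stromal list was not near 0. Col1a1 reached 2024 CPM, Col1a2 1406 CPM, Sparc 1150 CPM, Col3a1 289 CPM, Cxcl12 140 CPM and Pdgfrb 102 CPM. None of these fell below 49.0 CPM in any library. Dcn reached only 1.33 CPM, and Lum stayed under 0.5 CPM in every library. Summed stromal markers measured 3371 to 3815 CPM with 27HC, 3242 to 3881 CPM with GW3965, 2720 to 3300 CPM with the GW3965 combination, 2760 to 3156 CPM with ICI plus 27HC, and 4274 to 5047 CPM with Vehicle. The part of these marker differences in the results that follow was not tested. In bulk RNA, fewer cells of a type cannot be told apart from less marker RNA per cell.

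The promoters of 3 of the genes are printed because Lpcat3 and Pltp rose together with 27HC and with GW3965, while Lpcat2 fell with both. The windows come from RefSeq on GRCm38.p6 and run from 250 bases before to 50 bases after the annotated start, 5′ to 3′. Lpcat3 is at chr6:124662854-124663153 on the plus strand, Pltp at chr2:164857659-164857958 on the minus strand, and Lpcat2 at chr8:92855083-92855382 on the plus strand. Capitals mark 16 bases closest to a direct repeat of AGGTCA with 4 free bases between its copies, searched on both strands. Liver X receptor pairs are known to bind this repeat. Where stretches tied, the printed strand was preferred and the first stretch on it was marked, so others can be as close.
Lpcat3: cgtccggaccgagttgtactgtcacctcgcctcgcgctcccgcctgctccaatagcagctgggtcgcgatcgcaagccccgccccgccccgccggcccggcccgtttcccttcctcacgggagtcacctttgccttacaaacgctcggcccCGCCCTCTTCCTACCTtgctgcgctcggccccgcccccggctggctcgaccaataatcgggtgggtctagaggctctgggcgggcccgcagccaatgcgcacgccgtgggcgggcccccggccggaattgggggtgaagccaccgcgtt
Pltp: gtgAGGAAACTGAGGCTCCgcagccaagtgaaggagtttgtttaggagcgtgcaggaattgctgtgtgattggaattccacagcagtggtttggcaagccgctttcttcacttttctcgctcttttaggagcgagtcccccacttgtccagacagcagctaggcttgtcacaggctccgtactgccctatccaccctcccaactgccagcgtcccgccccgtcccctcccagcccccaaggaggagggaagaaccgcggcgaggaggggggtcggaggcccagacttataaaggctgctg
Lpcat2: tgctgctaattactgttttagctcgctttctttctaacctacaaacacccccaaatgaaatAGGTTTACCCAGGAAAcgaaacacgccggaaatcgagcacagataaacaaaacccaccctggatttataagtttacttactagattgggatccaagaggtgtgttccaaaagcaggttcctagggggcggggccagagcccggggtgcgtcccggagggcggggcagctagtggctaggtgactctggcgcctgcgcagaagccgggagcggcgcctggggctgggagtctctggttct
The marked stretch differed from the 12 fixed bases of the repeat at 4 positions in Lpcat3, 5 in Pltp and 4 in Lpcat2. A stretch within 4 mismatches was present in 76.9% of 32851 mouse promoter windows, and one within 5 in 99.8%. The matches in Lpcat3 and Lpcat2 were thus ordinary, and that in Pltp was weaker than in most windows. Windows were on file for 6 of the 8 genes, all but Lpl and Apoc1, and none of their 8 windows held a match within 3 mismatches, which 21.9% of all windows did. AGGTCA itself, in any number of copies and on either strand, was present in the Apoc2 window alone among them and in 16.3% of all windows. The match is a description of these letters in these windows and says nothing of receptor binding elsewhere.

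Per kilobase of exon, Apoe was by far the most abundant of the 8 transcripts. With Vehicle it averaged 2799 ± 232 CPM per kb, against 176 ± 2.00 for Pltp, 166 ± 15 for Lpl and 55.4 ± 3.57 for Lpcat2 (SD, n = 6). Lpcat3 averaged 14.7 ± 0.455, Lpcat1 9.82 ± 0.597, Apoc2 5.61 ± 1.38 and Apoc1 0.281 ± 0.195 CPM per kb. The length used joins all annotated exons of a gene, 10478 bases for Lpl and 2562 for Pltp, and the order depends on it. In CPM, Lpl averaged 1737 ± 157 with Vehicle and Pltp 452 ± 5.13. The range across treatments followed another order. From the highest to the lowest group mean, Lpl spanned 10.1-fold, Lpcat3 7.70-fold, Pltp 5.21-fold and Lpcat2 4.12-fold in CPM. Apoe spanned 1.99-fold and Lpcat1 1.61-fold, while Apoc2 spanned 3.96-fold and Apoc1 3.35-fold with a much larger spread inside groups. The SD inside groups, pooled on the log2 CPM scale, was 0.05 to 0.09 for the 6 other genes, against 0.70 for Apoc2 and 0.51 for Apoc1.

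**Figure D1:**
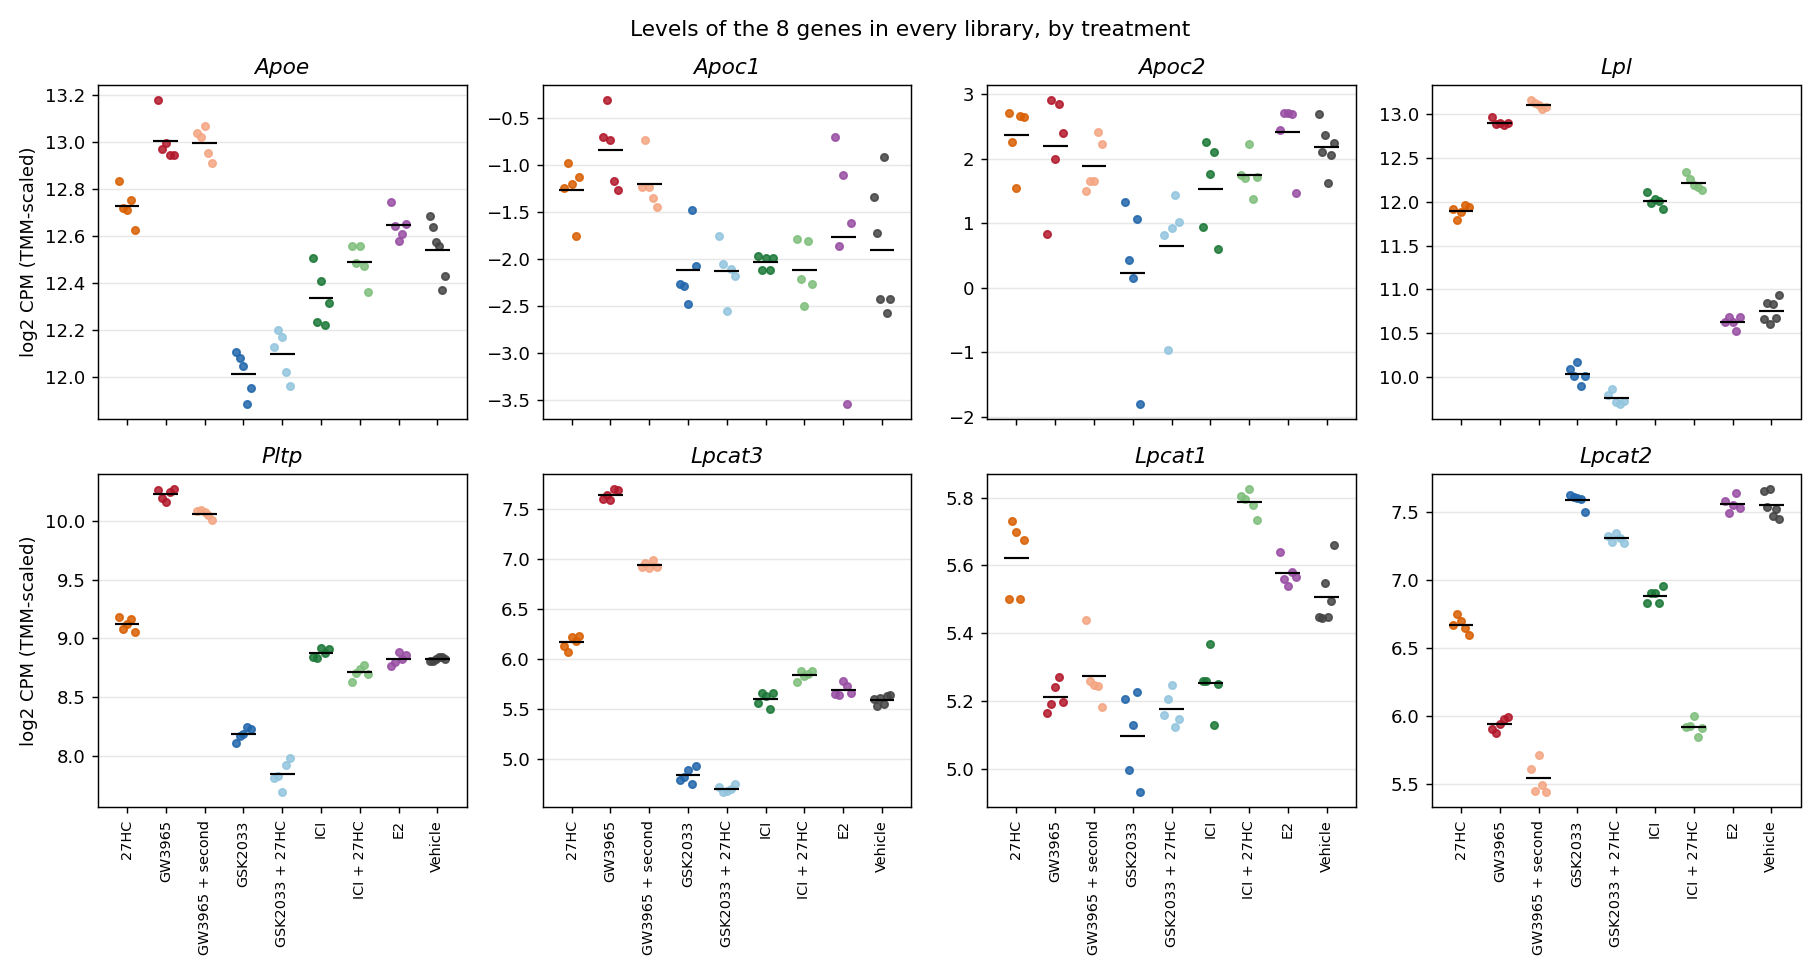
Level of each gene in each of the 46 libraries as log2 CPM (vertical axis, scale set per gene) by treatment (horizontal axis), where points are libraries and bars are group means. Lpl, Pltp and Lpcat3 lie highest with GW3965 or its combination and lowest with GSK2033 plus 27HC, while Lpcat2 lies lowest with the GW3965 combination.

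Treatment moved most of these genes, in a table where most treatments moved a large share of all genes. With 27HC, 4 of the 8 rose and 1 fell against Vehicle at an adjusted p below 0.05 (edgeR quasi-likelihood test, Benjamini-Hochberg over all genes tested), where 20.3% of all genes rose and 20% fell. With GW3965, 5 rose and 2 fell, where 23.1% of all genes rose and 21.1% fell. Among those 5 was Apoc1, which passed the low-count filter through 6 of 46 libraries, 3 of them GW3965 libraries. It lost the call without GW3965 replicate 2 (adjusted p = 0.0509). With the GW3965 combination 4 rose and 2 fell, where 25.2% rose and 24.4% fell. With GSK2033, 0 rose and 6 fell, where 18.4% rose and 17.9% fell, and with GSK2033 plus 27HC 0 rose and 7 fell, where 24.1% rose and 26.4% fell. With ICI, 1 rose and 3 fell, where 13.9% rose and 12.5% fell, and with ICI plus 27HC 3 rose and 2 fell, where 26.6% rose and 26.4% fell. E2 changed 0 of the 8 by edgeR, by limma-voom and by DESeq2, where 4.7% of genes were called, although 2 of them, Lpl and Lpcat3, had an unadjusted p below 0.05. The median log2 fold change of all 13838 genes was between -0.01 and 0.01 in all 8 comparisons with Vehicle, while that of the 8 genes was 0.25 with 27HC, 0.82 with GW3965 and -0.58 with GSK2033. All of these comparisons share the same 6 Vehicle libraries, and the medians of the 8 genes include Apoc1.

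**Figure D2:**
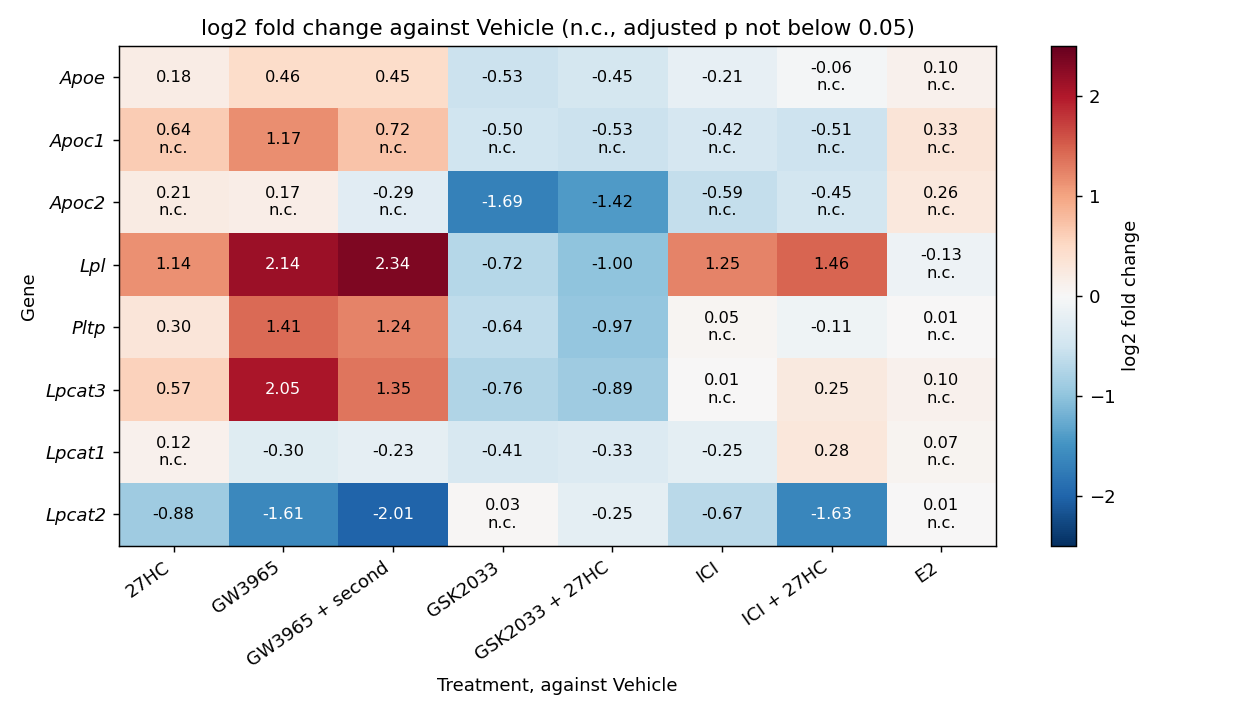
Log2 fold change of each gene (rows) in each treatment against Vehicle (columns), coloured from blue (lower) to red (higher), with n.c. where the adjusted p was not below 0.05. Lpl rose with 27HC, GW3965, the GW3965 combination, ICI and ICI plus 27HC, whereas Pltp and Lpcat3 were not called with ICI, at 0.05 and 0.01.

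Apoe (ENSMUSG00000002985, chr7:19696109-19699188, minus strand, GRCm38) encodes the main apolipoprotein that macrophages secrete. Its level rose modestly with both agonists and fell with the liver X receptor antagonist. Apoe measured 7302, 6742, 6712, 6903 and 6328 CPM with 27HC, against a range of 5292 to 6584 CPM with a median of 6067 CPM with Vehicle. These groups overlapped, and the log2 fold change was 0.18 ± 0.05 (SE, adjusted p = 0.0055). The GW3965 libraries held 9267, 8013, 8169, 7878 and 7876 CPM, all above the Vehicle range, a 1.38-fold rise (log2 fold change 0.46 ± 0.05, adjusted p = 1.2e-09). GW3965 replicate 1 stood above the other 4. With the GW3965 combination the log2 fold change was 0.45 ± 0.05 (adjusted p = 1.8e-09). With GSK2033 it measured 4405, 4328, 4231, 3787 and 3963 CPM, all below the Vehicle range, a 1.44-fold fall (log2 fold change -0.53 ± 0.05, adjusted p = 9.1e-11). ICI libraries held 5817, 4820, 5434, 4780 and 5096 CPM, which overlapped with Vehicle, and the log2 fold change was -0.21 ± 0.05 (adjusted p = 0.0035). In log2 CPM, Apoe averaged 13.01 ± 0.10 with GW3965, 13.00 ± 0.06 with its combination, 12.73 ± 0.07 with 27HC, 12.64 ± 0.06 with E2, 12.54 ± 0.12 with Vehicle, 12.49 ± 0.08 with ICI plus 27HC, 12.34 ± 0.12 with ICI, 12.10 ± 0.10 with GSK2033 plus 27HC and 12.01 ± 0.09 with GSK2033. In that order GW3965 and its combination overlapped with each other and stood apart from 27HC, and 27HC, E2, Vehicle, ICI plus 27HC and ICI overlapped from neighbour to neighbour. ICI stood apart from GSK2033 plus 27HC, which overlapped with GSK2033.

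Apoc2 (ENSMUSG00000002992, chr7:19671579-19677941, minus strand) encodes the apolipoprotein that activates lipoprotein lipase, and it lies 18168 bases from Apoe in the same cluster. It was a low transcript, with 0.201 to 7.42 CPM over all libraries. With GSK2033 it measured 2.42, 1.26, 1.02, 2.00 and 0.201 CPM, against 2.99 to 6.36 CPM with a median of 4.42 CPM with Vehicle. The groups did not overlap, and Apoc2 was 3.24-fold lower with GSK2033 (log2 fold change -1.69 ± 0.38, adjusted p = 0.00036). With GSK2033 plus 27HC the log2 fold change was -1.42 ± 0.37 (adjusted p = 0.0011). With GW3965 the 5 libraries measured 1.69, 7.42, 3.90, 7.13 and 5.18 CPM and spread across the whole Vehicle range, and the log2 fold change of 0.17 ± 0.33 was not called (adjusted p = 0.72). In log2 CPM, Apoc2 averaged 2.41 ± 0.53 with E2, the highest group, 2.36 ± 0.49 with 27HC, 2.2 ± 0.85 with GW3965, 1.89 ± 0.40 with its combination, 1.75 ± 0.31 with ICI plus 27HC, 1.53 ± 0.73 with ICI, 0.65 ± 0.93 with GSK2033 plus 27HC and 0.23 ± 1.23 with GSK2033, the lowest (SD, n = 5 each), and 2.18 ± 0.36 with Vehicle (SD, n = 6). With all groups ordered by mean, Vehicle between GW3965 and its combination, each overlapped with the next.

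These Apoc2 values are uncertain, because 646 of its 813 exon bases, or 79.5%, also belong to Gm44805, a protein-coding gene on the same strand. Gm44805 held 0 to 8.15 CPM with GW3965, and how the reads of the shared bases were divided between both genes is not given in the sources used here. Added together, in a check chosen after the data were seen, they measured 8.03 ± 1.05 CPM with GW3965, 2.43 ± 0.332 CPM with GSK2033 (SD, n = 5 each) and 5.29 ± 0.614 CPM with Vehicle (SD, n = 6). The summed level rose with GW3965 (log2 fold change 0.60 ± 0.10, adjusted p = 3.7e-06) and with its combination (0.31 ± 0.10, adjusted p = 0.011). It fell with GSK2033 (log2 fold change -1.12 ± 0.11, adjusted p = 4.1e-11), with GSK2033 plus 27HC (-1.34 ± 0.12, adjusted p = 1.0e-13) and with ICI plus 27HC (-0.42 ± 0.11, adjusted p = 0.00098). With 27HC it was 0.18 ± 0.10 (adjusted p = 0.16), which was not called. The call with GSK2033 thus stood with either count, and the call with GW3965 only with the sum.

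Apoc1 (ENSMUSG00000040564, chr7:19689481-19692660, minus strand) encodes a small apolipoprotein known to slow lipoprotein uptake and lipase action, and it lies 3449 bases from Apoe. It was almost silent here, with 0 to 17 estimated counts per library. It passed the filter on low counts through 6 of 46 libraries at or above 0.434 CPM, 3 of them GW3965 libraries. The GW3965 libraries held 0.529, 0.720, 0.513, 0.357 and 0.330 CPM, against 0.0818 to 0.445 CPM with a median of 0.159 CPM with Vehicle. The groups overlapped, and the log2 fold change was 1.17 ± 0.39 (adjusted p = 0.011). Without GW3965 replicate 2 it was 0.98 (adjusted p = 0.0509), so this call rests on 1 library. No other treatment passed the test against Vehicle, although the GW3965 combination did without Vehicle replicate 4 (1.08, adjusted p = 0.027). In log2 CPM, Apoc1 averaged -0.84 ± 0.39 with GW3965, the highest group, -1.20 ± 0.28 with its combination, -1.26 ± 0.29 with 27HC, -1.77 ± 1.09 with E2, -2.03 ± 0.08 with ICI, -2.11 ± 0.31 with ICI plus 27HC, -2.12 ± 0.39 with GSK2033, -2.13 ± 0.29 with GSK2033 plus 27HC, the lowest (SD, n = 5 each), and -1.90 ± 0.68 with Vehicle (SD, n = 6). With all groups ordered by mean, Vehicle between E2 and ICI, each overlapped with the next.

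Lpl (ENSMUSG00000015568, chr8:68880491-68907448, plus strand) encodes lipoprotein lipase, the enzyme that frees fatty acids from triglyceride. With 27HC it measured 3859, 3550, 3768, 3976 and 3930 CPM. GW3965 gave 7981, 7535, 7620, 7528 and 7596 CPM. The Vehicle libraries ran from 1554 to 1957 CPM with a median of 1727 CPM. Both treated groups lay wholly above Vehicle, and Lpl was 2.2-fold higher with 27HC (log2 fold change 1.14 ± 0.05, adjusted p = 1.5e-24) and 4.41-fold higher with GW3965 (2.14 ± 0.05, adjusted p = 6.5e-35). With the GW3965 combination it measured 9131, 8929, 8778, 8539 and 8662 CPM, above every library of GW3965 alone (log2 fold change against GW3965 0.20 ± 0.05, adjusted p = 0.0017). In that comparison 17.5% of all genes were called.

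Lpl also rose with ICI alone. ICI libraries held 4427, 4057, 4172, 4113 and 3858 CPM, all above Vehicle and overlapping with the 27HC libraries. The rise was 2.38-fold (log2 fold change 1.25 ± 0.05, adjusted p = 6.0e-25). ICI plus 27HC measured 5178, 4888, 4687, 4610 and 4486 CPM, above all ICI and all 27HC libraries. Summed macrophage markers measured 14593 to 15282 CPM and stromal markers 3588 to 4232 CPM with ICI, against 20883 to 22816 and 4274 to 5047 CPM with Vehicle, and their part was not tested. Among the other genes, Pltp gave a log2 fold change with ICI of 0.05 (95% interval -0.01 to 0.12) and Lpcat3 one of 0.01 (-0.06 to 0.08), and neither was called.

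With GSK2033 the Lpl libraries measured 1095, 1036, 1156, 956 and 1038 CPM, all below Vehicle (log2 fold change -0.72 ± 0.05, adjusted p = 6.4e-17). GSK2033 plus 27HC measured 892, 930, 845, 831 and 848 CPM, below every GSK2033 library. E2 libraries, at 1590, 1647, 1585, 1480 and 1645 CPM, overlapped with Vehicle, and the log2 fold change of -0.13 ± 0.05 was not called (adjusted p = 0.12). Without Vehicle replicate 3 it was -0.16 and called (adjusted p = 0.036). In log2 CPM the group means, from high to low, were 13.10 ± 0.04 with the GW3965 combination, 12.90 ± 0.03 with GW3965, 12.22 ± 0.08 with ICI plus 27HC, 12.01 ± 0.07 with ICI, 11.90 ± 0.06 with 27HC, 10.76 ± 0.13 with Vehicle, 10.63 ± 0.06 with E2, 10.04 ± 0.10 with GSK2033 and 9.76 ± 0.07 with GSK2033 plus 27HC. Of the neighbours in that order, only ICI with 27HC and E2 with Vehicle overlapped.

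Pltp (ENSMUSG00000017754, chr2:164839518-164857711, minus strand) encodes phospholipid transfer protein. It had the tightest control libraries of the 8, from 446 to 459 CPM with a median of 452 CPM with Vehicle. With 27HC it measured 579, 540, 557, 574 and 531 CPM, all above that range (log2 fold change 0.30 ± 0.03, adjusted p = 2.0e-10). With GW3965 it measured 1228, 1173, 1146, 1216 and 1239 CPM, a 2.65-fold rise (1.41 ± 0.03, adjusted p = 1.7e-34). The combination lay just below GW3965 alone, at 1083, 1092, 1080, 1059 and 1031 CPM, without overlap (log2 fold change against GW3965 -0.17 ± 0.03, adjusted p = 0.00025).

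Pltp was below its Vehicle level with GSK2033. The libraries measured 275, 288, 291, 303 and 299 CPM (log2 fold change -0.64 ± 0.03, adjusted p = 2.3e-20). GSK2033 plus 27HC measured 224, 226, 206, 243 and 252 CPM, below every GSK2033 library. ICI plus 27HC, at 396, 418, 427, 437 and 415 CPM, lay just below Vehicle (-0.11 ± 0.03, adjusted p = 0.0039), although 27HC alone lay above it. The 3′ end of Pltp shares 495 of its 2562 exon bases with Ctsa on the opposite strand, and the strand setting of the counting is not given in the sources used here. In log2 CPM, Pltp averaged 10.23 ± 0.05 with GW3965, 10.06 ± 0.03 with its combination, 9.12 ± 0.05 with 27HC, 8.87 ± 0.04 with ICI, 8.83 ± 0.05 with E2, 8.82 ± 0.02 with Vehicle, 8.71 ± 0.05 with ICI plus 27HC, 8.18 ± 0.05 with GSK2033 and 7.84 ± 0.11 with GSK2033 plus 27HC. Only ICI, E2 and Vehicle overlapped as neighbours in that order. Ctsa moved by -0.15 with GW3965 and -0.11 with GSK2033 on the log2 scale, and the part of reads from the shared bases was not tested.

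Lpcat3 (ENSMUSG00000004270, chr6:124663027-124704418, plus strand) encodes the acyltransferase that puts polyunsaturated chains into membrane phospholipids. With 27HC it measured 69.9, 67.0, 74.3, 72.3 and 74.7 CPM, against 46.1 to 49.7 CPM with a median of 48.6 CPM with Vehicle. The groups did not overlap, and the rise was 1.49-fold (log2 fold change 0.57 ± 0.03, adjusted p = 6.7e-19). With GW3965 it measured 193, 198, 192, 208 and 206 CPM, a rise of 4.14-fold. The GW3965 combination held 120, 124, 120, 126 and 121 CPM. It was thus 1.63-fold lower with the combination than with GW3965 alone (log2 fold change -0.70 ± 0.03, adjusted p = 3.4e-21), the same pair of groups in which Lpl was higher.

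GSK2033 brought Lpcat3 to 27.5, 28.1, 29.5, 26.8 and 30.4 CPM, all below Vehicle (log2 fold change -0.76 ± 0.04, adjusted p = 7.9e-22). GSK2033 plus 27HC measured 26.2, 25.3, 25.4, 25.8 and 26.8 CPM and touched no GSK2033 library. ICI plus 27HC measured 54.5, 58.6, 56.6, 57.4 and 58.8 CPM, above Vehicle and below 27HC alone (log2 fold change against Vehicle 0.25 ± 0.03, adjusted p = 3.4e-08). In log2 CPM, Lpcat3 averaged 7.64 ± 0.05 with GW3965, 6.94 ± 0.03 with its combination, 6.16 ± 0.07 with 27HC, 5.84 ± 0.04 with ICI plus 27HC, 5.69 ± 0.06 with E2, 5.60 ± 0.07 with ICI, 5.59 ± 0.04 with Vehicle, 4.83 ± 0.07 with GSK2033 and 4.70 ± 0.03 with GSK2033 plus 27HC. ICI plus 27HC overlapped with E2, and E2, ICI and Vehicle overlapped with each other from neighbour to neighbour. Lpcat3 shares 334 of its 3268 exon bases with Emg1 on the opposite strand. Emg1 gave log2 fold changes of 0.27 with 27HC, 0.32 with GW3965 and 0.16 with GSK2033.

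**Figure D3:**
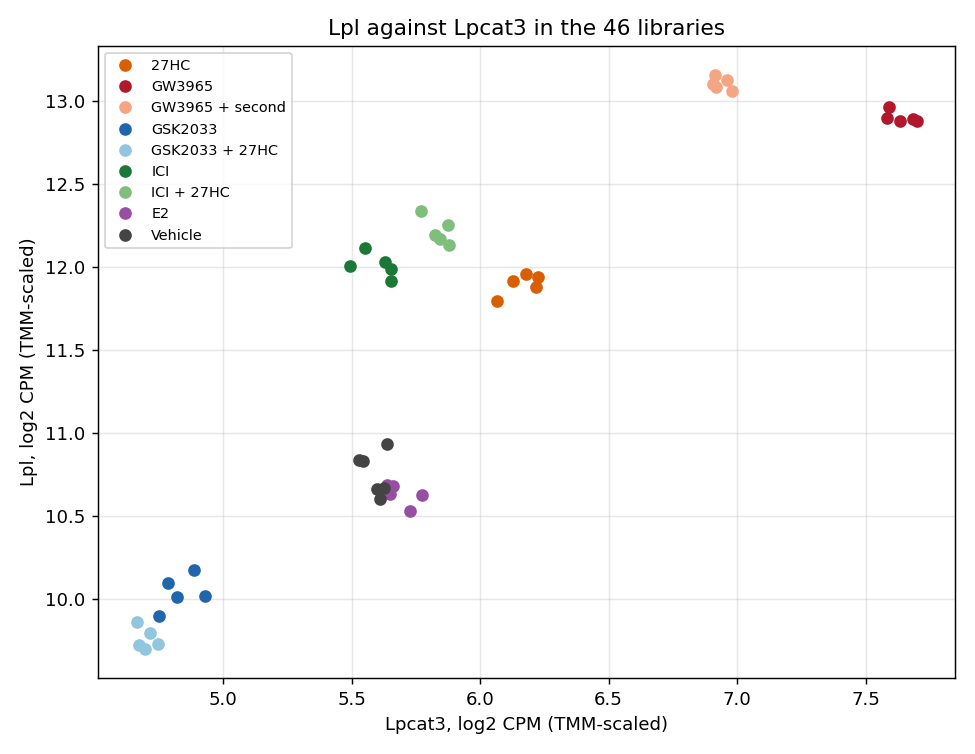
Lpl (vertical axis) against Lpcat3 (horizontal axis) in log2 CPM, 1 point per library, coloured by treatment. ICI libraries sit at the Lpcat3 level of Vehicle, near 5.6, but at a mean Lpl level of 12.01, against 10.76 with Vehicle, and the GW3965 combination lies above and to the left of GW3965 alone.

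Lpcat2 (ENSMUSG00000033192, chr8:92855339-92919279, plus strand) encodes the acyltransferase that also makes platelet-activating factor, and it moved the other way. With 27HC it measured 102, 108, 104, 100.1 and 96.8 CPM. With GW3965 it measured 60.0, 58.5, 61.5, 63.1 and 63.6 CPM. Vehicle libraries ran from 175 to 204 CPM with a median of 185 CPM. Neither group overlapped with Vehicle, and Lpcat2 was 1.84-fold lower with 27HC (log2 fold change -0.88 ± 0.04, adjusted p = 4.8e-23) and 3.06-fold lower with GW3965 (-1.61 ± 0.04, adjusted p = 1.0e-32). The GW3965 combination, at 48.8, 43.6, 52.5, 44.9 and 43.3 CPM, was lower still (log2 fold change against GW3965 -0.40 ± 0.04, adjusted p = 2.4e-09).

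GSK2033 alone gave no call for Lpcat2. Its libraries held 197, 195, 194, 193 and 181 CPM of Lpcat2 and overlapped with Vehicle, and the log2 fold change was 0.03 (95% interval -0.05 to 0.11, adjusted p = 0.55). ICI alone gave 114, 120.1, 119.98, 114 and 124 CPM, a 1.59-fold fall (log2 fold change -0.67 ± 0.04, adjusted p = 3.3e-18). ICI plus 27HC gave 60.4, 60.7, 64.1, 57.6 and 60.2 CPM, as low as GW3965 and overlapping with it (log2 fold change against Vehicle -1.63 ± 0.04, adjusted p = 7.2e-33). In log2 CPM, Lpcat2 averaged 7.59 ± 0.05 with GSK2033, 7.56 ± 0.05 with E2, 7.55 ± 0.09 with Vehicle, 7.31 ± 0.03 with GSK2033 plus 27HC, 6.89 ± 0.06 with ICI, 6.67 ± 0.06 with 27HC, 5.94 ± 0.05 with GW3965, 5.92 ± 0.05 with ICI plus 27HC and 5.54 ± 0.12 with the GW3965 combination. GSK2033, E2 and Vehicle overlapped as neighbours, as did GW3965 and ICI plus 27HC, and the other neighbours stood apart.

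Lpcat1 (ENSMUSG00000021608, chr13:73467197-73516422, plus strand) encodes the acyltransferase that uses saturated chains and is best known from lung surfactant. It changed little and in its own order. With 27HC it measured 45.2, 53.0, 51.9, 45.2 and 51.0 CPM, against 43.5 to 50.5 CPM with a median of 44.3 CPM with Vehicle, and the log2 fold change of 0.12 ± 0.05 was not called (adjusted p = 0.055). With GW3965 it measured 35.8, 36.4, 37.7, 38.5 and 36.6 CPM, all below Vehicle (-0.30 ± 0.05, adjusted p = 2.8e-06). GSK2033 lowered it too, to 36.8, 31.8, 34.9, 37.4 and 30.4 CPM (log2 fold change -0.41 ± 0.05, adjusted p = 5.7e-09). Lpcat1 was thus below Vehicle with the agonist and with the antagonist of the liver X receptors. This was not particular to them, since ICI also lowered it (-0.25 ± 0.05, adjusted p = 8.3e-05). The GW3965 combination (-0.23 ± 0.05, adjusted p = 0.00011) and GSK2033 plus 27HC (-0.33 ± 0.05, adjusted p = 2.0e-07) lay below Vehicle too. ICI plus 27HC was the highest group, at 55.8, 55.5, 56.7, 54.8 and 53.1 CPM, above every other library of the study (log2 fold change against Vehicle 0.28 ± 0.05, adjusted p = 3.5e-06). In log2 CPM, Lpcat1 averaged 5.79 ± 0.04 there, 5.62 ± 0.11 with 27HC, 5.58 ± 0.04 with E2, 5.51 ± 0.09 with Vehicle, 5.27 ± 0.10 with the GW3965 combination, 5.25 ± 0.08 with ICI, 5.21 ± 0.04 with GW3965, 5.18 ± 0.05 with GSK2033 plus 27HC and 5.10 ± 0.13 with GSK2033. ICI plus 27HC stood apart from 27HC and Vehicle from the GW3965 combination, and all other neighbours overlapped.

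27HC and GW3965 differed from each other in 6 of the 8 genes, where 25.3% of all genes were called. Apoe (log2 fold change, 27HC over GW3965, -0.28), Lpl (-1.0), Pltp (-1.11) and Lpcat3 (-1.48) were lower with 27HC, and Lpcat1 (0.41) and Lpcat2 (0.73) were higher. Apoc2 (0.04) was not called, but its sum with Gm44805 was lower with 27HC (-0.41 ± 0.11, adjusted p = 0.0025). Set beside their own changes against Vehicle, Lpl rose by 1.14 with 27HC and 2.14 with GW3965, while Pltp rose by 0.30 and 1.41 and Lpcat3 by 0.57 and 2.05 on the log2 scale. Both comparisons share the Vehicle libraries, and doses are not known, so the sizes describe these exposures only.

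The combinations with an antagonist were set against 27HC alone. GSK2033 plus 27HC differed from 27HC alone in all 8 genes, where 21.1% of all genes were higher and 21.7% lower: Lpcat2 was higher by 0.63 and the other 7 were lower, among them Lpl (log2 fold change -2.13 ± 0.05), Apoc2 (-1.63 ± 0.38) and Lpcat3 (-1.47 ± 0.04). Apoc1 was one of them only with the filter on low counts, since its adjusted p was 0.028 with it and 0.071 without it, and it lost the call without 27HC replicate 2 (0.060) or GSK2033 plus 27HC replicate 3 (0.071). ICI plus 27HC differed from 27HC alone in 7 genes, all but Apoc2, where 34.1% were called. Apoc2 itself (-0.66 ± 0.35, adjusted p = 0.16) was called when summed with Gm44805 (-0.61 ± 0.11, adjusted p = 2.2e-05) and in a fit to the compared groups alone (adjusted p = 0.033). Lpl was higher by 0.32 and Lpcat1 by 0.16, while Lpcat2 fell by 0.75, Pltp by 0.41, Lpcat3 by 0.33 and Apoe by 0.24 on the log2 scale. Apoc1 also passed, at -1.15 (adjusted p = 0.041), and lost the call without the filter (0.096), by limma-voom (0.062), by DESeq2 (0.054) and without any one of 27HC replicates 1, 2, 3 and 5 and ICI plus 27HC replicates 2, 3 and 5.

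In the presence of GSK2033, 27HC raised 0 of the 8 and lowered 4. Against GSK2033 alone, Lpl (-0.28 ± 0.05), Pltp (-0.34 ± 0.03), Lpcat3 (-0.14 ± 0.04) and Lpcat2 (-0.28 ± 0.04) fell, where 17.1% of all genes rose and 18.8% fell. The fall of Lpcat3 was not called when libraries were scaled by their totals alone (-0.08, adjusted p = 0.078). The interaction, the 27HC effect with GSK2033 minus the 27HC effect without it, was called for the same 4 genes, where 19.6% of genes were. It was -1.42 ± 0.07 for Lpl, -0.64 ± 0.05 for Pltp, -0.71 ± 0.05 for Lpcat3 and 0.60 ± 0.06 for Lpcat2. For Apoe the interaction was -0.10 (95% interval -0.26 to 0.06) and for Lpcat1 -0.04 (-0.19 to 0.10), and neither was called.

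In the presence of ICI, 27HC raised Lpl by 0.21 ± 0.05, Lpcat3 by 0.24 ± 0.04 and Lpcat1 by 0.53 ± 0.05 and lowered Pltp (-0.16 ± 0.03) and Lpcat2 (-0.97 ± 0.04), where 19.7% of all genes rose and 20.7% fell. Apoe also passed (0.15 ± 0.06, adjusted p = 0.034), but lost the call without any one of ICI replicates 2, 4 and 5 and ICI plus 27HC replicates 1, 2 and 3, with adjusted p from 0.051 to 0.097, and without the low-count filter (0.068). The interaction with ICI was called for 4 genes, where 17.4% of genes were. It was -0.93 ± 0.07 for Lpl, -0.46 ± 0.05 for Pltp, -0.33 ± 0.05 for Lpcat3 and 0.42 ± 0.07 for Lpcat1. Lpcat2 fell by 0.97 with 27HC in the presence of ICI and by 0.88 without it, and the interaction was not called, at -0.09 (95% interval -0.20 to 0.03, adjusted p = 0.37).

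**Figure D4:**
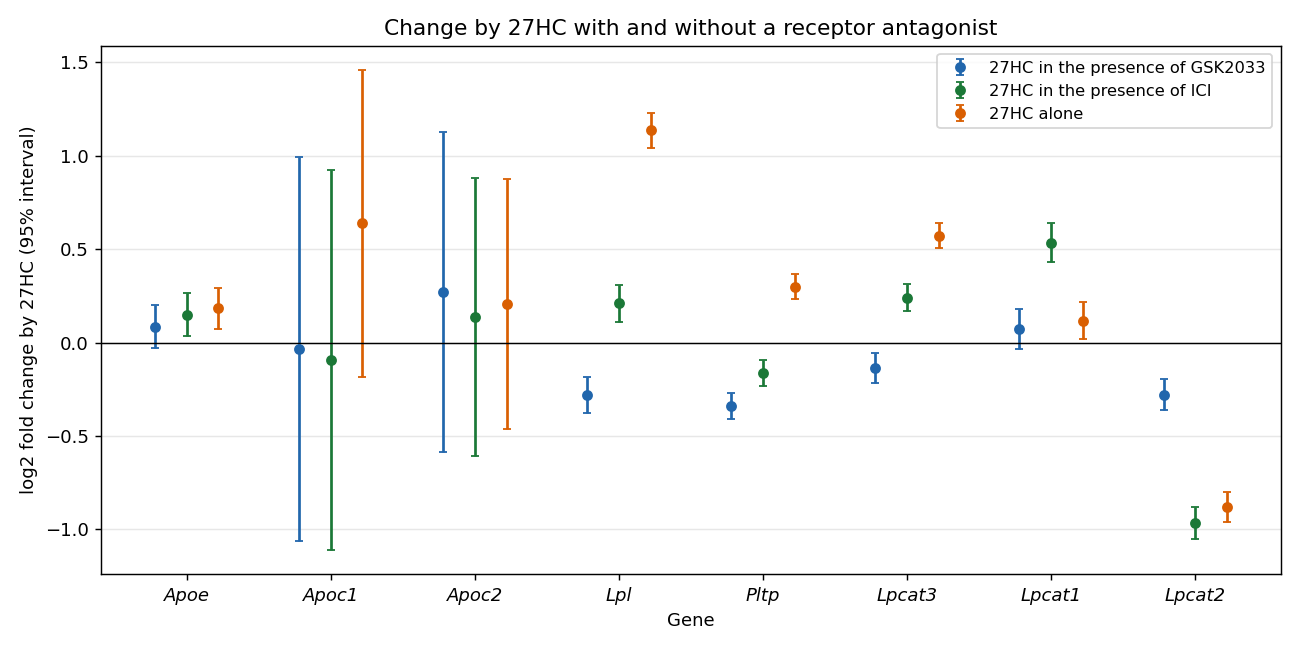
Log2 fold change by 27HC (vertical axis, bars are 95% intervals) for each gene, in the presence of GSK2033 (blue, against GSK2033 alone), in the presence of ICI (green, against ICI alone) and alone (orange, against Vehicle). Lpl falls by 0.28 with GSK2033, rises by 0.21 with ICI and by 1.14 alone, while Lpcat2 falls by 0.97 with ICI and by 0.88 alone.

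Taken per kilobase, the make-up of the acyltransferase transcripts differed between treatments. Lpcat3 made up 70.0% ± 0.609 of the 3-gene sum with GW3965, 62.9% ± 1.92 with its combination, 35.0% ± 1.72 with 27HC, 37.0% ± 1.14 with ICI plus 27HC and 12% ± 0.905 with GSK2033 (SD, n = 5 each), against 18.4% ± 0.817 with Vehicle (SD, n = 6). Lpcat2 made up 20.8% ± 0.460 with GW3965 and 77.9% ± 0.635 with GSK2033, against 69.3% ± 1.70 with Vehicle. Lpcat1 took its largest share, 25.2% ± 0.601, with ICI plus 27HC, against 12.3% ± 0.942 with Vehicle. These shares restate the levels given above and were not tested. They depend on the joined exon lengths, 3268 bases for Lpcat3, 4632 for Lpcat1 and 3388 for Lpcat2.

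**Figure D5:**
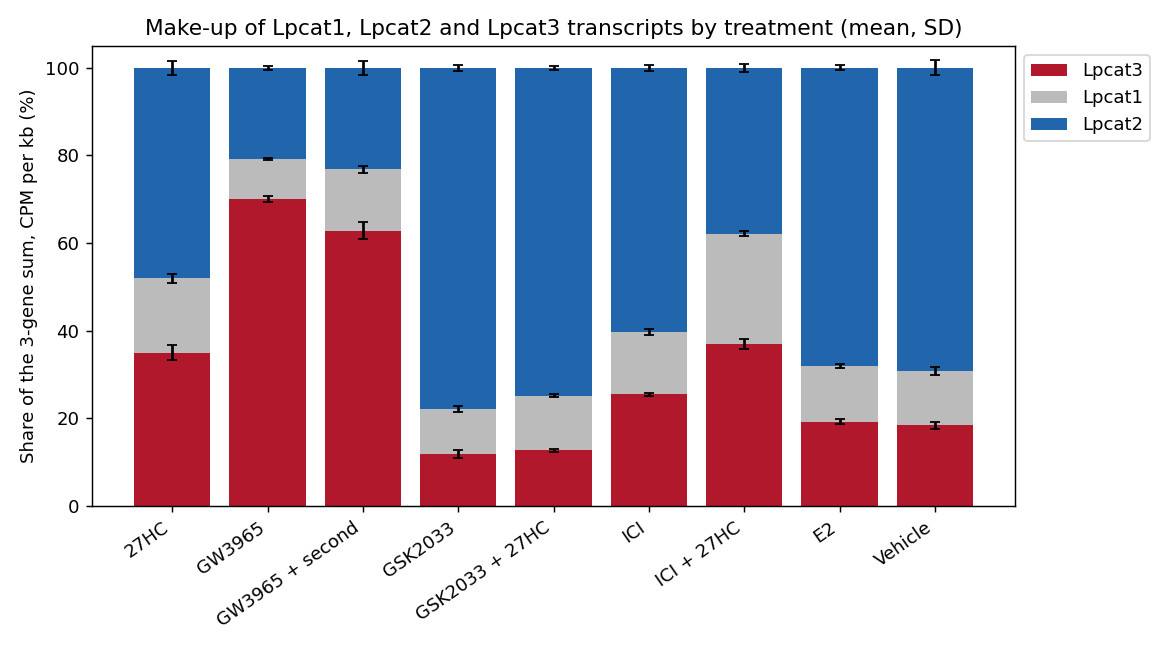
Mean share of Lpcat3 (red), Lpcat1 (grey) and Lpcat2 (blue) in the sum of the 3 genes as CPM per kb (vertical axis, %, bars are SD) by treatment. Lpcat3 holds 70.0% with GW3965 and 12% with GSK2033, against 18.4% with Vehicle.

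Over the 46 libraries, which share the 9 treatments, Pltp and Lpcat3 had a Pearson correlation of 0.98 in log2 CPM, Apoe and Lpcat3 one of 0.90, and Lpl and Lpcat2 one of -0.91. With group means taken out, these were 0.30, -0.39 and -0.41. Apoe with Lpcat3 thus changed sign, and the other pairs just named kept theirs at a weaker level. A change of sign was not particular to that pair. Apoe with Pltp went from 0.90 to -0.26, Lpl with Pltp from 0.88 to -0.16 and Lpl with Lpcat3 from 0.88 to -0.12. Apoe with Lpl kept its sign, at 0.78 and 0.35. The values over all libraries describe mainly the differences between treatments. Among all tested genes with a mean of at least 1 CPM, those most like Lpcat3 were the fatty acid desaturases Scd2 (0.99) and Scd1 (0.98) and the elongase Elovl5 (0.98). Those most like Pltp were the iron exporter Slc40a1 (0.97), Tmem86a (0.96) and Elovl5 (0.96). Lpl was closest to the growth factor Igf1, the lipid receptor Trem2 and Rasgef1b, each at 0.98. Lpcat2 was closest to the formyl peptide receptors Fpr2 (0.99) and Fpr1 (0.98) and to Irak3 (0.98), a brake on Toll-like receptor signalling. Among the 3 genes closest to Apoe were Idh1 (0.94) and Ctnna1 (0.94). The nearest genes to Lpcat1 reached 0.83 (Rgl2, Snap29 at 0.83 and Tmem50b at 0.81), to Apoc2 0.75 (Stk24, Glg1 and Itch at 0.74) and to Apoc1 0.68 (Kif11, Hadhb at 0.68 and Hnrnpm at 0.67).

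Genes around these pathways were counted in the same way. Of 10 tested lipase partners and other lipases, 3 rose and 3 fell with 27HC, where 20.3% of all genes rose and 20% fell, and 3 rose and 2 fell with GW3965, where 23.1% rose and 21.1% fell. Lipa, the lysosomal acid lipase, rose with GW3965 (log2 fold change 0.83 ± 0.03) and Angptl4, a secreted inhibitor of lipoprotein lipase, rose too (0.74 ± 0.06), while Lipe, the hormone-sensitive lipase, fell (-0.69 ± 0.05). Sel1l, which helps lipoprotein lipase leave the endoplasmic reticulum, rose by 0.25 with GW3965. The list's median with GW3965 was -0.02, near that of all genes.

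Of 14 tested lipoprotein receptors and other apolipoproteins, 1 rose and 6 fell with 27HC (all genes 20.3% and 20%), 6 rose and 5 fell with GW3965 (all genes 23.1% and 21.1%), and 3 rose and 6 fell with GSK2033 (all genes 18.4% and 17.9%). Lrp1, a receptor that takes up Apoe-rich particles, rose with 27HC (log2 fold change 1.03 ± 0.08) and GW3965 (1.43 ± 0.08) and fell with GSK2033 (-0.54 ± 0.09). Scarb1, the scavenger receptor for high-density lipoprotein, rose with GW3965 (0.95 ± 0.04) and fell with GSK2033 (-0.47 ± 0.05).

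Of 23 tested genes of phospholipid acyl chain remodelling, 5 rose and 6 fell with 27HC (all genes 20.3% and 20%), 9 rose and 6 fell with GW3965 (all genes 23.1% and 21.1%), and 6 rose and 4 fell with GSK2033 (all genes 18.4% and 17.9%). Acsl4, which activates arachidonic acid, rose with 27HC (log2 fold change 0.45 ± 0.03) and GW3965 (0.81 ± 0.03), and Pla2g7, the enzyme that breaks down platelet-activating factor, fell with both (-0.77 ± 0.04 and -0.92 ± 0.04). Of 20 tested genes of phospholipid head group synthesis, 2 rose and 5 fell with 27HC, and 7 rose and 4 fell with GW3965, beside the same shares of all genes. Pcyt2, of phosphatidylethanolamine synthesis, fell with 27HC (-0.38 ± 0.05) and rose with GW3965 (0.41 ± 0.05). The medians of both lists lay between -0.02 and 0.01 with 27HC and with GW3965.

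Of 13 other liver X receptor targets, 9 rose and 3 fell with 27HC (all genes 20.3% and 20%), 11 rose and 2 fell with GW3965 (all genes 23.1% and 21.1%), and 1 rose and 12 fell with GSK2033 (all genes 18.4% and 17.9%). Their median log2 fold change was 0.53 with 27HC, 2.37 with GW3965 and -1.20 with GSK2033. With ICI, 4 rose and 4 fell (all genes 13.9% and 12.5%), with a median of -0.10. Abcg1, a cholesterol and phospholipid exporter, rose with ICI as Lpl did (log2 fold change 1.41 ± 0.07, adjusted p = 9.3e-21), while Abca1, the exporter that loads Apoe, gave -0.05 and was not called (adjusted p = 0.61).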

How the data were processed

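The deposited table holds estimated counts per gene, which the authors made with kallisto 0.44.0 on GRCm38, per the submitters' processing notes. Per the labels, stranded TruSeq libraries of polyadenylated RNA were sequenced on 3 lanes as single reads of 100 nt. Length correction and the strand setting are not given in the sources used here.

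Estimated counts were rounded, which changed no library total by more than 133. GENCODE M21 gave symbols and GRCm38 positions for all but 428 genes, which held 0.483% of the counts. After filterByExpr, edgeR 4.0.16 (R 4.3.3) with TMM scaling fitted a robust quasi-likelihood model with 9 group means to the 46 libraries (37 residual degrees of freedom, biological coefficient of variation 7.55%). Over 16 comparisons, Benjamini-Hochberg adjustment ran over all 13838 genes within each, at a threshold of 0.05. Log2 CPM used a prior count of 2. limma 3.58.1 and DESeq2 1.42.0 served as alternatives, beside other scalings, no low-count filter, fits to the compared groups alone, a replicate block and leaving out each library. The test was checked on simulated counts.

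The members and lists were chosen with earlier results of these data known. Named genes are all 8 members, up to 4 genes with the smallest p per list, the 3 genes most correlated with each member, and Abca1 and Abcg1, of which some are not reported here. Replicates differed beyond sampling noise in all 95 pairs, with a chi-square of 3.91 to 12.2 per degree of freedom.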

Additional observations from a re-analysis of the deposited data

Results flagged for a closer look

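In 72 groups of libraries (8 genes in 9 treatments), 5 held a library whose gap to its nearest neighbour, as a share of the group's range in log2 CPM, passed Dixon's 95% critical value. Chance gives about 1 in 20 such groups. Among GW3965 libraries, replicate 1 was the highest for both Apoe (9267 CPM) and Lpl (7981 CPM). Apoc2 was low in GSK2033 plus 27HC replicate 2 (0.428 CPM) and in E2 replicate 5 (2.68 CPM). Lpcat2 was lowest in GSK2033 replicate 5, at 181 CPM.

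The change by 27HC differed with and without GSK2033 for 4 genes, by an interaction term (edgeR quasi-likelihood test, adjusted p below 0.05). The difference on the log2 scale was -1.42 for Lpl, -0.64 for Pltp, -0.71 for Lpcat3 and 0.60 for Lpcat2. It differed with and without ICI for Lpl (-0.93), Pltp (-0.46), Lpcat3 (-0.33) and Lpcat1 (0.42). The Lpcat2 difference thus passed the test with GSK2033 only, and the Lpcat1 difference with ICI only. Whether the interactions with GSK2033 and with ICI differ from each other was not tested.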

How the results depend on the processing

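Of 128 comparisons of the 8 genes, 83 were called. Over all alternatives these gave 1625 values, of which 1603 kept direction and call, 22 lost the call and 0 reversed. Of those not called, 17 values became called and 51 changed sign, of which 2 did both. The count of the 8 genes called with E2 ran from 0 to 1 over single libraries left out, with 1 without Vehicle replicate 3. All other counts of the 8 genes and of all genes stayed within 1.5 times. Lpcat1 with 27HC passed under 6 of 8 alternatives (adjusted p 0.012 to 0.0497) and without any one of Vehicle replicate 6 and 27HC replicates 1 and 4.

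Library totals in place of TMM turned the sign of values that were not called, to -0.011 for Lpcat3 with ICI, -0.0031 for Pltp and -0.0026 for Lpcat2 with E2, 0.016 (0.0031 by upper quartiles) for Apoe with the GW3965 combination against GW3965, 0.015 for Apoc1 with GSK2033 plus 27HC against GSK2033, and 0.0060 for Lpcat1 in the GSK2033 interaction. Apoc2 in the ICI interaction was 0.13 by limma-voom. Apoc2 summed with Gm44805, chosen after the data were seen, turned to 0.31 with the GW3965 combination and -0.41 for 27HC against GW3965, both then called (adjusted p = 0.011 and 0.0025), and to -0.22 with GSK2033 plus 27HC against GSK2033, -0.21 with ICI plus 27HC against ICI, and -0.40 in the GSK2033 interaction.

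Leaving out 1 library turned the sign of other values that were not called. They ran from -0.095 to 0.039 for Abcg1, -0.080 to 0.69 for Apoc1, -0.015 to 0.031 for Lpcat2 and -0.0092 to 0.020 for Pltp with E2, and from -0.013 to 0.032 for Lpcat3 with ICI. Apoc1 ran from -0.19 to 0.27 with GSK2033 plus 27HC against GSK2033 and from -0.24 to 0.033 with ICI plus 27HC against ICI. Apoc2 ran from -0.00092 to 0.37 with GW3965, -0.17 to 0.21 for 27HC against GW3965, -0.055 to 0.34 with ICI plus 27HC against ICI, -0.20 to 0.37 in the GSK2033 interaction and -0.26 to 0.13 in the ICI interaction. Apoe ran from -0.026 to 0.039 with the GW3965 combination against GW3965 and from -0.065 to 0.0082 in the ICI interaction.

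Over all tested genes, replicate numbers showed little sign of pairing the libraries. The correlation of deviations ran from -0.072 to 0.0998 over 180 pairs with the same number. By mean correlation, 12 of 46 libraries were closest to their own number. A single gene can depart from this. Apoe was highest in replicate 1 with 27HC, GW3965, GSK2033, ICI, ICI plus 27HC, E2 and Vehicle. It was not so with the GW3965 combination or GSK2033 plus 27HC. Whether the numbers mark a shared source is not given in the labels. With the replicate number as a block, 5606 genes were called with 27HC, against 5576 without it, Lpcat1 with 27HC was 0.15 (adjusted p = 0.012), and Lpcat2 and Abcg1 with E2, not called, were -0.012 and 0.042.

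With library totals in place of TMM, the share of higher among all called genes was 58.3%, against 47.7%, with GSK2033 plus 27HC against Vehicle, 60.9%, against 50.4%, for 27HC against GW3965, and 58.7%, against 45.3%, for the GW3965 combination against GW3965. For GSK2033 plus 27HC it was 61.1%, against 49.4%, over 27HC and 62.7%, against 47.6%, over GSK2033, and for the interactions 63.2%, against 47.6%, with GSK2033 and 54.2%, against 42.6%, with ICI. Apoc1, at 0 to 17 counts per library, and Apoc2 had the widest spread within groups. The cause of these changes was not tested.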
